A study of Mus musculus with 10 samples.

Results

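Collagens, laminins and integrins were taken from the mouse annotation by symbol: the protein-coding autosomal genes named Col, a number, a and a number, those starting with Lama, Lamb or Lamc and a digit, and those starting with Itga or Itgb. The rule found 83 of 20807 protein-coding genes: 42 collagens, 11 laminins, 18 integrin alpha and 9 integrin beta subunits, and 3 genes that share the integrin symbol without being subunits (Itgb1bp1, Itgb3bp and Itgbl1). Their gene bodies with 20 kb on either side, called gene windows here, held 777 of the 108367 ATAC-seq sites of the series. These genes are long, with a median length of 80.8 kb against 17.6 kb over all protein-coding genes, and 223 of the 777 sites had a peak in 1 library only. Col27a1 had the most sites with 28, followed by Col25a1 (26), Lamb3 (23), Col4a2 (22) and Itga9 (21), and Itgam, Itgax and Col10a1 had none. Windows of neighbouring genes overlap, and 9 sites lay in the windows of 2 or more members.

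The samples were primary neural stem/progenitor cells (NSPCs) from the brains of C57BL/6 mice at postnatal day 5, without transgene or Cre, grown as cultures that mix stem and progenitor cells. Activated NSPCs divided in medium with FGF2 and EGF at 20 ng/ml each. Quiescent NSPCs had FGF2 at 20 ng/ml and BMP4 at 25 ng/ml in place of EGF for 4 days per the labels (the methods give a shorter time before collection for ATAC-seq), and reactivated NSPCs were returned to the activating medium for 9 to 12 days after those 4 days. Chromatin accessibility was measured by ATAC-seq, in which a transposase cuts open DNA, with 2 libraries of independent cultures for each of the 3 states, and H3K4me3, a histone mark of active promoters, by ChIP-seq with 1 library each of quiescent and activated NSPCs.

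Laminins are heterotrimers of an alpha, a beta and a gamma chain that form the sheet-like network of basement membranes, and collagen IV forms a further network within it. Integrins are the receptors that hold cells to this matrix: alpha6beta1 and alpha7beta1 bind laminins, alpha1beta1, alpha2beta1, alpha10beta1 and alpha11beta1 bind collagens, and the alphav and alpha5 receptors bind fibronectin and vitronectin. In the adult ventricular-subventricular zone, neural stem cells touch a laminin-rich basement membrane and the vessels behind it, and integrins take part in holding them there.

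The authors called peaks in each library separately, with 47037 to 60355 peaks used for the quiescent and activated libraries, 106270 and 106830 for the reactivated ones, and 17166 and 15962 for H3K4me3. Read counts per site were not among the values used, so depth shows here only through the number of peaks. Every comparison with reactivated NSPCs carries this difference in list length. The value of a peak is its fold enrichment, the height of its pileup over the local background, and overlapping peaks of the 6 libraries were joined into sites. A site is called open in a state with a peak in both its libraries and closed with a peak in neither. In cultures of mixed cells, a lower enrichment from fewer cells with the site open and from less opening per cell cannot be told apart. All 5 markers of NSPCs (Sox2, Nes, Pax6, Fabp7 and Sox9) had a promoter peak in all 6 libraries, against 0 of 5 endothelial, 0 of 5 microglial, 0 of 4 oligodendrocyte, 1 of 5 fibroblast and mural and 2 of 4 neuronal markers.

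The sequences that carry the state-specific sites are given first, as 201-base windows centred on peak summits, plus strand, from the GRCm38.p6 assembly of RefSeq. Capitals mark any match, on either strand, to the letters recognised by NFI factors (TTGGC, or the NFI palindrome, in which its reverse complement follows after a gap), by AP-1 (TGANTCA), by proneural basic helix-loop-helix factors (the E-box CAGCTG) or by TEAD factors (GGAATG). The palindrome contains the shorter NFI letters. The first 4 sites, shown as strong examples outside exons and untranslated regions, were open in quiescent and closed in activated NSPCs and lay in Col17a1 (chr19:47658977-47659177), downstream of Col1a2 (chr6:4557789-4557989), in Col14a1 (chr15:55385653-55385853) and in Col11a1 (chr3:114065592-114065792).
Col17a1 intron, quiescent-specific: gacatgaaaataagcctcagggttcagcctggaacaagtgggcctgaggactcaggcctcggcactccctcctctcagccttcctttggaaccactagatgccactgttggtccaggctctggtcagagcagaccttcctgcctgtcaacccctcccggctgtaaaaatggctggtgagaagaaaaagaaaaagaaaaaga
Col1a2 downstream, quiescent-specific: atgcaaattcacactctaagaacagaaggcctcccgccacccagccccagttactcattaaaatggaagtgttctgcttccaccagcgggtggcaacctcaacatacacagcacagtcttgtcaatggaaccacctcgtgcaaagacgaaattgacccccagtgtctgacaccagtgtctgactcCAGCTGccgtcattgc
Col14a1 intron, quiescent-specific: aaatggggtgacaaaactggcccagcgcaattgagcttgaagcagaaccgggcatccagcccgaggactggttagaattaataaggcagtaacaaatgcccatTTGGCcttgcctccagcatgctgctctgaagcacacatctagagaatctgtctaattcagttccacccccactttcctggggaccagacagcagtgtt
Col11a1 intron, quiescent-specific: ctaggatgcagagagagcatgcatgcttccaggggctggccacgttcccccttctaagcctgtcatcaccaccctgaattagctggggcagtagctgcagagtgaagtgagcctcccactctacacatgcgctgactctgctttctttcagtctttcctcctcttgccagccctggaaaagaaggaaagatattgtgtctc

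The Col1a2 window held an E-box at base 186 and the Col14a1 window TTGGC at base 104, counted from the left end, and the other 2 windows none of these letters. The next 4 sites were open in activated and closed in quiescent NSPCs, in Itga9 (chr9:118818655-118818855), Lama5 (chr2:180218759-180218959) and Col12a1 (chr9:79605852-79606052) and downstream of Col4a4 (chr1:82429231-82429431).
Itga9 intron, activated-specific: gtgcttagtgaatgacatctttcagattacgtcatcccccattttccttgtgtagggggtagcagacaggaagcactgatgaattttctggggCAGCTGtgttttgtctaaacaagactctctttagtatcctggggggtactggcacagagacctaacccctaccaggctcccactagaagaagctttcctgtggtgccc
Lama5 intron, activated-specific: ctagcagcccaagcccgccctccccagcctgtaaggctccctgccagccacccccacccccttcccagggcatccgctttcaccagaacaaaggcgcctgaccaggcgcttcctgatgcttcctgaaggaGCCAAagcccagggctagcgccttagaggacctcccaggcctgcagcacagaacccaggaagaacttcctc
Col12a1 intron, activated-specific: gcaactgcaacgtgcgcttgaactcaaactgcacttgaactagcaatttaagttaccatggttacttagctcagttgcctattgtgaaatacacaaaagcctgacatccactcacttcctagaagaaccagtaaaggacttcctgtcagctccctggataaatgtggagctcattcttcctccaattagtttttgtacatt
Col4a4 downstream, activated-specific: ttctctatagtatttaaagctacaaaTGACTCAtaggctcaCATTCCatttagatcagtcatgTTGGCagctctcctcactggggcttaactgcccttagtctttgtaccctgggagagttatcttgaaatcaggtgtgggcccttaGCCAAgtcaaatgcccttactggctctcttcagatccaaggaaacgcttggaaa

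The Itga9 window held an E-box at base 94, close to the summit, and the Lama5 window the minus-strand form of TTGGC at base 131. The Col4a4 window held an AP-1 match at base 27, a minus-strand TEAD match at base 42 and TTGGC at bases 64 and 148, the latter on the minus strand. The last 2 summit windows stand for sites open in reactivated NSPCs alone, within the gene bodies of Lama4 (chr10:39028152-39028352) and Itgb3 (chr11:104619783-104619983).
Lama4, reactivated alone: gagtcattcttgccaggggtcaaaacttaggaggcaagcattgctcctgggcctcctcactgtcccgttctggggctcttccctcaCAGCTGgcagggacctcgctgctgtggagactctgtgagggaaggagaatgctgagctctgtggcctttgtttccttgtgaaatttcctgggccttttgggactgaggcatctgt
Itgb3, reactivated alone: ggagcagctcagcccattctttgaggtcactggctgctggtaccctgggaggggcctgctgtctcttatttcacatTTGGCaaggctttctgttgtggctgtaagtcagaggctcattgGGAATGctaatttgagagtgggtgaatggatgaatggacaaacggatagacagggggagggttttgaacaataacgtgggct

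The Lama4 window held an E-box at base 87, and the Itgb3 window TTGGC at base 77 and a TEAD match at base 120. Among the promoters that were open in activated and closed in quiescent NSPCs, the Col9a2 site (window chr4:121039964-121040164) and the Col6a2 promoter (chr10:76623631-76623880, the 250 bases before its start, minus strand) are shown. The Col6a2 site itself, chr10:76623270-76623682, overlaps only the end of that sequence nearest the start.
Col9a2 promoter site: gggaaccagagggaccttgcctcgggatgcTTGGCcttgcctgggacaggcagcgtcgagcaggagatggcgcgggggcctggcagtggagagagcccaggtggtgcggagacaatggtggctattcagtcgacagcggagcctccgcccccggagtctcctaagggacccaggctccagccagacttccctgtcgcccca
Col6a2 promoter: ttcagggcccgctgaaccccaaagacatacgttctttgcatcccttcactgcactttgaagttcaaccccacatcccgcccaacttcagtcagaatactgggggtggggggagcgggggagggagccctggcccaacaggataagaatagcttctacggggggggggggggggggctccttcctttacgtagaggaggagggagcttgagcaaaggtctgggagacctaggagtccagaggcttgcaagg

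The Col9a2 window held TTGGC at base 31, and the Col6a2 promoter none of the letters. Over all 44 activated-specific sites of the genes, 22 windows (50%) held an E-box, beside 43.7% of all activated-specific sites in the genome. Among the 55 quiescent-specific sites the E-box was in 10 (18.2%, beside 14.8% of all such sites), and over all sites its share was 21.7%. TTGGC was in 41.8% of the quiescent-specific and 40.9% of the activated-specific windows of the genes, beside 54.1% and 46.3% of all sites of these kinds. AP-1 letters were in 9.09% and 20.5%, beside 7.26% and 12.8%, and TEAD letters in 16.4% and 20.5%, beside 13.9% and 13.7%. The NFI palindrome was in none of these windows of the genes. In promoters of all genes (the 250 bases before the start) the shares were 41.6% for TTGGC, 0.0369% for the palindrome, 6.73% for AP-1, 13.1% for the E-box and 12.6% for TEAD letters. A match of this kind describes the sequence and says nothing of binding.

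At the promoters, taken as 1 kb on either side of any annotated start, no gene was open in quiescent cells alone. A peak was present in all 6 ATAC-seq libraries at 29 of the 83 genes (34.9%), beside 54.5% of all protein-coding genes. These were 11 of 42 collagens, 5 of 11 laminins, 8 of 18 integrin alpha genes, 2 of 9 integrin beta genes and all 3 genes that are not subunits. No library had one at 18 genes (21.7%, beside 30% of all genes), among them the fibrillar collagens Col1a2 and Col3a1, the epithelial Col17a1 and Itgb4, and the leukocyte integrins Itgam, Itgax, Itgad, Itgae, Itgb2 and Itgb7. Others of these kinds went the other way. The fibrillar collagens Col1a1, Col5a1, Col5a2 and Col11a1 and the epithelial Lamb3 had a promoter peak in all 6 libraries. The leukocyte integrin Itgal had one in both reactivated libraries (4.14 and 3.86). The promoter was open in quiescent NSPCs at 32 genes, in activated NSPCs at 38 and in reactivated NSPCs at 60, beside 11830, 11917 and 13822 of all 20807 genes. The promoter peaks had a median percentile of 57.2 within their libraries' lists of fold enrichment, beside 81.6 over all genes with a promoter peak. By mean percentile the strongest were Col11a1 (98.8), a fibrillar collagen, Itgb1 (94.1), the beta subunit of most matrix-binding integrins, Itgb8 (91.6), a partner of alphav, Itgb1bp1 (91.4) and Itga8 (90.2). Itgb6, Col14a1, Col7a1, Itga10 and Col2a1 had the weakest, from 13 to 23.9. A mean covers only the libraries with a peak, and for these weakest genes those libraries differed by gene and state.

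Among the laminins, the promoters of Lama5, Lamb1 and Lamc1, whose chains join in a widespread basement membrane laminin, carried H3K4me3 in both states, but Lamb1 had an ATAC-seq peak there in the reactivated libraries alone. Lamc1, the common gamma chain, had fold enrichments of 6.79 and 7.79 in the quiescent, 8.65 and 7.21 in the activated and 12.4 and 10.7 in the reactivated libraries. Lama5 had 3.47 and 2.77, 4.99 and 5.23, and 7.53 and 5.94 in the same order. The quiescent values of Lama5 were the lowest and the reactivated ones the highest, without overlap between states. These values are uncentred, and the limma test below centres them on each library's median. Reactivated minus activated was then -0.26 for Lama5 (limma adjusted p = 0.376) and -0.10 for Lamc1 (limma adjusted p = 0.72). Quiescent minus activated was -0.50 for Lama5 (limma adjusted p = 0.141) and 0.10 for Lamc1 (limma adjusted p = 0.768). Lamb1 had no promoter peak in any of the 4 quiescent and activated libraries, and 5.46 and 4.18 in the reactivated libraries, while its H3K4me3 enrichment was 40.1 in quiescent and 37.3 in activated NSPCs.

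Lama1, an alpha chain of embryonic basement membranes, had promoter values of 3.63 and 6.04 in the quiescent libraries, 9.33 and 6.99 in the activated ones and 12.0 and 12.4 in the reactivated ones, again without overlap between states. After centring, quiescent minus activated was -0.56 for Lama1 (limma adjusted p = 0.159). Lamb2, a beta chain of vascular and synaptic laminins, had 2.55 and 2.90, 4.75 and 3.56, and 6.13 and 5.13 as the highest peak of each library over 2 neighbouring sites, of which 1 had no peak in quiescent NSPCs. The median enrichments of the libraries over all peaks had the same order of states (4.16 and 3.52 in quiescent, 4.6 and 4.42 in activated, 4.86 and 4.92 in reactivated NSPCs). Lama2, the alpha chain of muscle and vascular laminins, had 5.00 and 3.21 in quiescent NSPCs, 2.79 in 1 activated library and none in the other, and 6.14 and 8.21 in reactivated NSPCs, with no H3K4me3 peak. Lama4, the endothelial alpha chain, had 2.50 and 2.75 in quiescent NSPCs, 3.28 in 1 activated library, and 5.21 and 5.84 in reactivated NSPCs, each state at a different start of the gene.

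Col4a1 and Col4a2, whose products form the common collagen IV trimer, share a promoter from which they run in opposite directions, with 1 site at chr8:11312329-11313307 (mm10). The site had fold enrichments of 3.74 and 2.98 in the quiescent libraries, 4.33 and 3.52 in the activated ones and 9.15 and 10.1 in the reactivated ones. Both reactivated values lay above the other 4, which overlapped between quiescent and activated NSPCs. The Col4a3 and Col4a4 pair, which encodes the collagen IV of kidney and lung, shares a promoter in the same way. It had no ATAC-seq peak in the quiescent and activated libraries and values of 6.27 and 6.50 in the reactivated ones, with H3K4me3 at 11.2 and 10.4.

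Among the integrin genes, Itgb1 had the strongest promoter by mean percentile, with 8.05 and 12.1 in the quiescent libraries, 11.6 and 10.7 in the activated ones and 15.4 and 15.1 in the reactivated ones. Itga6, its partner in the laminin receptor of stem cells, had 3.16 and 3.29, 5.04 and 4.14, and 7.68 and 9.30 at its H3K4me3-marked start. Itga7, a further laminin receptor subunit, had a peak in 1 library each of quiescent (3.78) and activated NSPCs (5.55) and in both reactivated libraries (8.09 and 7.62). Itgav had 7.11 and 8.61, 11.3 and 7.44, and 13.1 and 12.3, with quiescent and activated values overlapping. Its partner Itgb8 had 7.68 and 9.55, 10.8 and 10.5, and 12.6 and 13.6. Itgb5 had 4.08 in 1 quiescent library, 4.62 and 3.45 in activated and 5.58 and 5.99 in reactivated NSPCs. After centring, reactivated minus activated was -0.19 for the Itgb1, -0.18 for the Itgav, -0.36 for the Itgb8 and 0.24 for the Itga6 promoter. None passed (limma adjusted p of 0.207 or more).

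**Figure D1:**
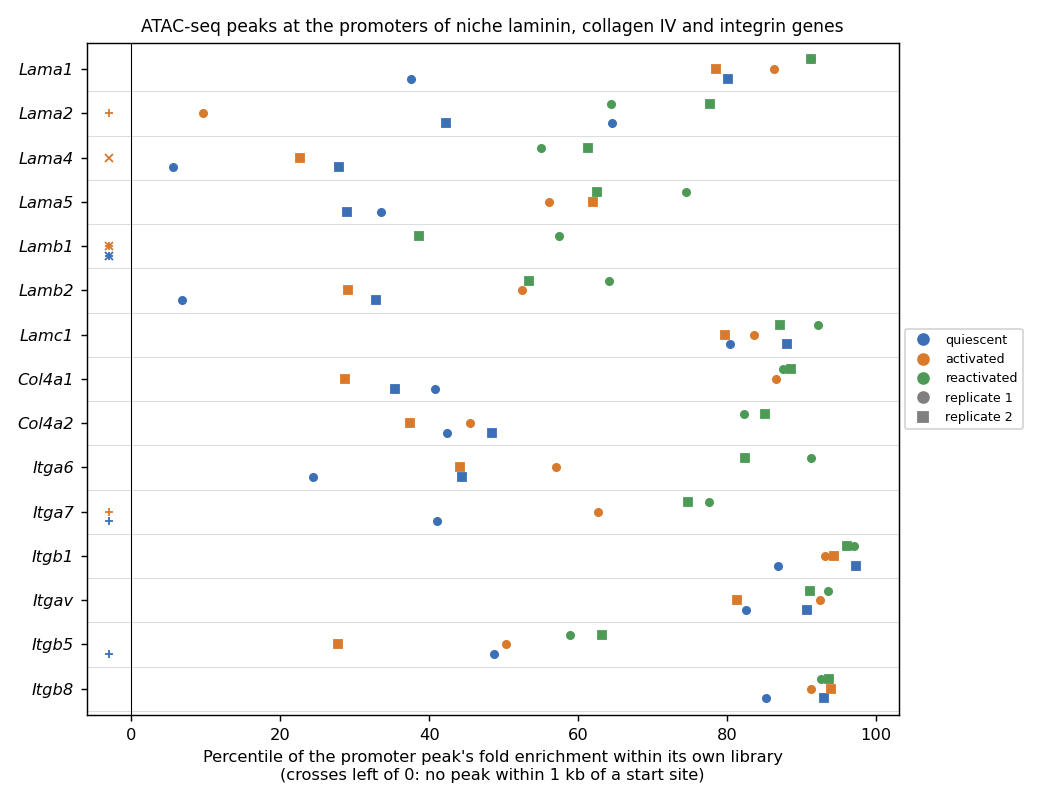
Strength of the promoter ATAC-seq peak of 15 laminin, collagen IV and integrin genes, as the percentile of its fold enrichment within its own library (horizontal axis, percent), taking the strongest peak at any annotated start, with circles for replicate 1, squares for replicate 2 and crosses for libraries without a peak. Itgb1, Itgb8, Itgav and Lamc1 sit at the upper end in every state, and Lamb1 has a peak only in the reactivated libraries.

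Among the 29 genes with a promoter peak in all 6 libraries, both reactivated percentiles exceeded the other 4 at 14 genes, beside 43.9% of all such genes, and percentiles come from lists of unequal length. Both activated percentiles exceeded both quiescent ones at 6 genes (all genes, 16%) and the reverse held at 6 genes (all genes, 25.8%).

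At 4 collagen genes the promoter was open in activated and closed in quiescent NSPCs, and none of the 83 was open in quiescent and closed in activated NSPCs, beside 0.947% and 0.779% of all promoters. Col9a2, a chain of the fibril-associated collagen IX of cartilage, had 3.05 and 2.85 in the activated and 6.87 and 6.26 in the reactivated libraries. Col12a1, another fibril-associated collagen, had 3.68 and 3.88, then 5.23 and 3.8. Col6a2, a chain of beaded-filament collagen VI, had 4.24 and 2.57, then 7.80 and 8.65. Col2a1, the fibrillar collagen of cartilage, had 2.96 and 2.42, then 4.59 and, at a neighbouring site, 3.86. The count was 8 without quiescent replicate 2 and 7 without activated replicate 1. The count of promoters open in quiescent and closed in activated NSPCs was 2 without quiescent replicate 1 or activated replicate 2, and 1 without activated replicate 1.

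The promoter was open in reactivated NSPCs alone at 13 genes, beside 3.57% of all promoters: Col4a3, Col4a4, Col6a5, Col8a2, Col11a2, Col15a1, Col22a1 and Col26a1, Itga3, Itga11, Itgal and Itgb6, and Lamb1. Col22a1, the collagen of tissue junctions, had the highest values of these, 8.41 and 10.6. The reactivated peak lists were also the longest, and their part in this count was not tested.

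H3K4me3 covered the promoters of the genes in much the same way in both states, as far as 1 library each can show. A promoter peak was present in quiescent and activated NSPCs at 44 genes (53%, beside 61% of all genes) and in neither at 33. It was present in the quiescent library alone at 5 collagen genes, Col8a2 (3.50), Col28a1 (5.83), Col6a2 (5.59), Col14a1 (4.93) and Col8a1 (3.20), beside 1.36% of all genes. These peaks ranked between the percentiles 3 and 19.5 of their list. In the activated library alone it was present at Lama3 (4.52, percentile 9.49), a chain of epithelial laminin, beside 0.12% of all genes. Col6a2 thus had H3K4me3 in the quiescent library alone and an ATAC-seq promoter peak in the activated but not the quiescent libraries.

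After centring on the median difference over all genes (0.12 on the log2 scale), 2 genes had at least 1.5 times the H3K4me3 enrichment in quiescent NSPCs, beside 2.66% of all genes with both values. Col11a1 had 39.9 against 22.8, a centred log2 difference of 0.69, and Itgb3, the beta subunit of the vitronectin receptor, 22.7 against 13.6 (0.62). The reverse held for Itga7, with 4.32 against 6.62 (-0.73), and Itga9, a tenascin receptor subunit, with 19.4 against 27.0 (-0.59), beside 1.75% of all genes. No test is possible with 1 library per state. In the gene windows as a whole H3K4me3 had 107 peaks in the quiescent and 100 in the activated library, summed over genes, of which 55 and 53 lay away from the genes' own starts.

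At 7 genes both states carried H3K4me3 while no quiescent or activated library had an ATAC-seq promoter peak: Lamb1, Itga3, Itga11, Col4a3, Col4a4, Col15a1 and Col26a1, each open in reactivated NSPCs. Over all genes this held for 496 of 20807. The strongest by H3K4me3 was Lamb1, followed by Itga3, a laminin receptor subunit, with 15.2 and 15.0. Conversely Col9a1, Itga2 and Itgbl1 had ATAC-seq promoter peaks in all 6 libraries and no H3K4me3 peak, as did 219 of all 20807 genes. For Col9a1 the peaks lay at alternative starts inside the gene.

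**Figure D2:**
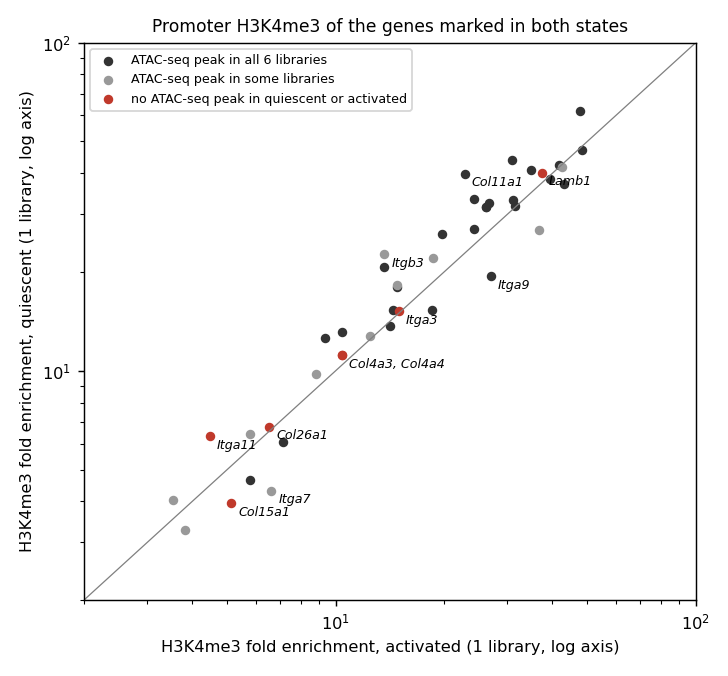
H3K4me3 fold enrichment at the promoters of the 44 genes marked in both states, in activated (horizontal, log axis) and quiescent NSPCs (vertical, log axis), with 1 library each and the line of equality. The 7 red points are genes without an ATAC-seq promoter peak in the quiescent and activated libraries, and Lamb1 lies among the most strongly marked genes.

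Over the gene windows, the shares of both kinds of state-specific sites are set beside those of all sites. Of 323 sites with a peak in 2 or more of the 4 quiescent and activated libraries, 55 (17%, exact 95% binomial interval 13.1 to 21.6%) were open in quiescent and closed in activated NSPCs, beside 14.7% of all sites. The reverse held for 44 (13.6%, 10.1 to 17.9%), beside 9.97% of all sites, and 224 were shared. The quiescent-specific interval covered the share of all sites, and the activated-specific one lay just above it. The intervals cover counting error only. With peaks of −log10 q of at least 10 the shares were 14% (all sites, 11.7%) and 12.3% (11.1%), and within gene bodies 18.8% (14.7%) and 12.6% (9.97%). With 1 library left out a single peak decides a call. The quiescent-specific count was then 119 (46.5%, all sites 39.6%) without quiescent replicate 1 and 91 (35.4%, all sites 33.2%) without replicate 2. The activated-specific count was 74 (28.5%, all sites 18.6%) without activated replicate 1 and 93 (33.8%, all sites 26.7%) without replicate 2. The gene windows held 0.649% and 0.676% of the peaks of the quiescent libraries and 0.65% and 0.689% of those of the activated libraries, a difference of -0.00688 percentage points (two-sided exact permutation test, p = 0.667, the smallest possible p being 0.333). The sign of this difference turned without quiescent replicate 1 (0.0067) or activated replicate 2 (0.0126).

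Introns held the largest number of state-specific sites of either kind, as they did of all sites in the windows (366 of 777). Of the 55 quiescent-specific sites, 34 were intronic, 10 upstream, 3 downstream, 4 exonic, 3 at the genes' own promoters and 1 at the promoter of another gene. Of the 44 activated-specific sites, 17 were intronic, 6 upstream, 5 downstream, 3 exonic, 8 at own promoters and 5 at those of other genes. At promoters of any gene, 4 of 115 sites (3.48%) were quiescent-specific, beside 4.21% of all promoter sites, and 13 (11.3%) activated-specific, beside 4.65%. Away from promoters, the counts were 51 of 208 (24.5%), beside 20.7%, and 31 (14.9%), beside 13%. By family, 33 of 164 collagen sites (20.1%) were quiescent-specific and 25 (15.2%) activated-specific. For the laminins these were 8 and 6 of 44 (18.2% and 13.6%), for integrin alpha genes 9 and 8 of 67 (13.4% and 11.9%) and for integrin beta genes 5 and 5 of 42 (11.9% each). The families' intervals overlapped for both kinds.

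**Figure D3:**
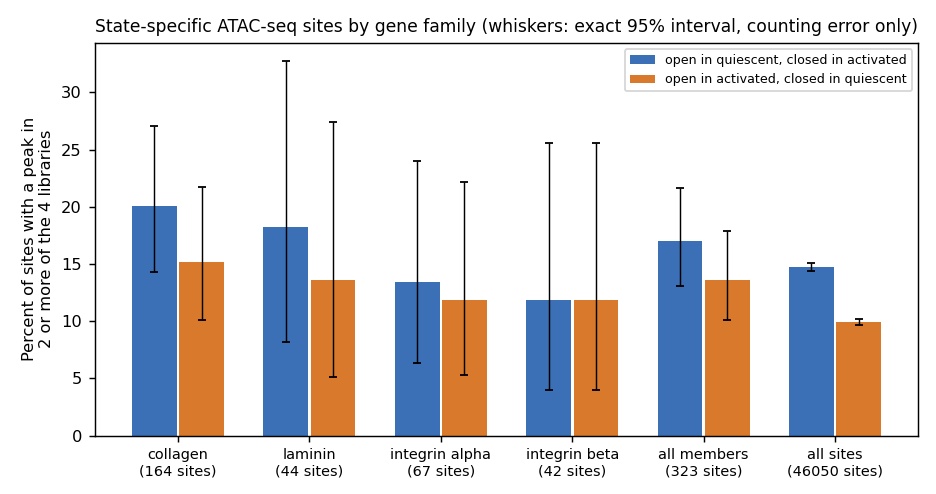
Percent of sites open in quiescent and closed in activated NSPCs (blue) and the reverse (orange) by gene family, for all 83 genes and for all sites of the genome (bars from 0, whiskers the exact 95% binomial interval). Collagen genes have the highest bars, 20.1% and 15.2%, with whiskers that overlap those of the other families.

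Lama2 held 4 quiescent-specific sites and no activated-specific one. Its exonic site at chr10:27103774-27104230 had 7.49 and 6.57 in the quiescent libraries and no peak in the 4 others. Intronic Lama2 sites had 4.47 and 3.75 at chr10:27127425-27127883 and 4.47 and 4.59 at chr10:27468183-27468678, closed in activated NSPCs and with 5.47 and 6.12, and 5.2 and 7.85, in reactivated NSPCs. Col22a1 held 4 quiescent-specific and 3 activated-specific sites, so that its sites went both ways. Col9a1, Col11a1, Col14a1, Col4a1 and Col27a1 held 3 quiescent-specific sites each, and Itgb3, Itga1 (a collagen receptor subunit), Col4a2 and Lama3 2 each. The site at chr8:11324828-11325192 lay both upstream of Col4a1 and in an intron of Col4a2, with 3.16 and 3.29 in the quiescent libraries alone.

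Further quiescent-specific sites with peaks in reactivated NSPCs are given here by their uncentred fold enrichment, which was higher over all peaks in the reactivated libraries. The Col14a1 intron site had 7.23 and 3.59 in quiescent NSPCs, no peak in activated NSPCs and 15.0 and 14.5 in reactivated NSPCs. Its reactivated values were the highest of any quiescent-specific site of the genes. The Col17a1 intron site, in the gene of a transmembrane collagen of hemidesmosomes, had 5.08 and 6.42 in quiescent and 6.61 and 5.53 in reactivated NSPCs. The Col11a1 intron site at chr3:114065558-114066052 had 5.39 and 3.97, then 8.94 and 8.91, and was the 1 quiescent-specific site covered by an H3K4me3 peak, in the quiescent library alone. The Itga1 exon site at chr13:114992217-114993001 had 6.84 and 4.51, then 6.27 and 6.78.

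Col12a1 had the most activated-specific sites, 4 of them, its promoter among these. Its exonic site at chr9:79599279-79599959 had 5.31 and 5.13 in activated and 15.3 and 12.2 in reactivated NSPCs, and its intronic site at chr9:79605771-79606441 had 7.83 and 5.13, then 9.07 and 9.58. Lamb3, Itga8, Lama5, Col27a1, Col5a1 and Col1a1 held 2 each. The Itga9 intron site at chr9:118818415-118818998 had 9.72 and 5.70, the highest activated value of these sites, then 11.05 and 10.96. At chr2:71744893-71745503, the 5-prime-most start of Itga6 had no peak in quiescent NSPCs, 4.11 and 3.85 in activated and 12.0 and 7.85 in reactivated NSPCs. No H3K4me3 peak covered this start. The H3K4me3-marked Itga6 start, further downstream, had a peak in every library.

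**Figure D4:**
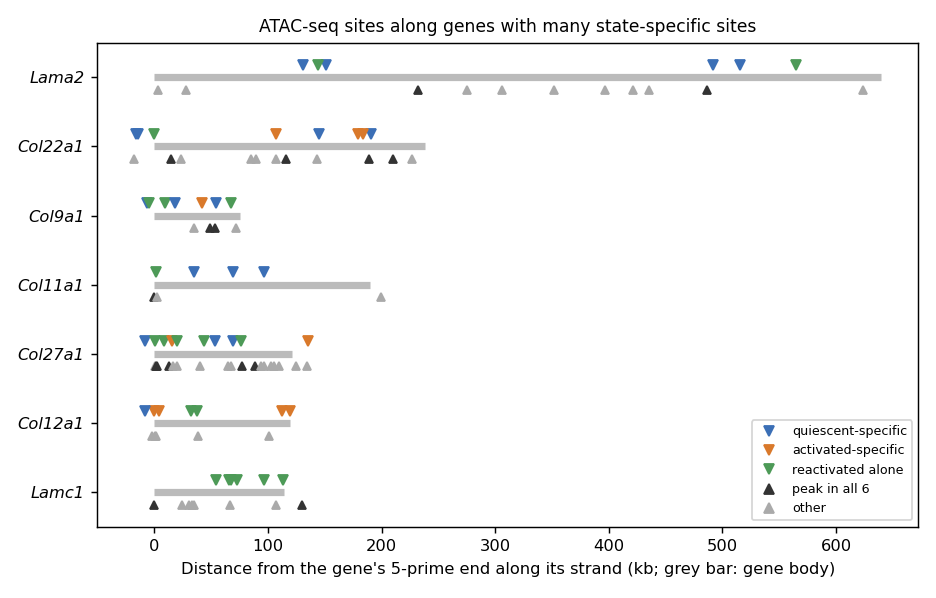
ATAC-seq sites of 7 genes by distance from the gene's 5-prime end along its strand (kb, grey bar the gene body), with quiescent-specific sites in blue, activated-specific in orange, reactivated alone in green, peaks in all 6 libraries in black and other sites in grey. Lama2 shows 4 blue triangles and no orange one, and Col12a1 shows 4 orange triangles and 1 blue one.

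The share of state-specific sites that were open after reactivation was near that of all such sites. Of the 44 activated-specific sites, 39 were open in reactivated NSPCs (88.6%, 75.4 to 96.2%), beside 91.9% of all activated-specific sites, and none was closed. Of the 55 quiescent-specific sites, 26 were open (47.3%, 33.7 to 61.2%), beside 55% of all, and 19 were closed. By family, 12 of 33 quiescent-specific collagen sites (36.4%, 20.4 to 54.9%), 4 of 8 laminin (50%), 7 of 9 integrin alpha (77.8%, 40 to 97.2%) and 3 of 5 integrin beta sites (60%) were open there, with intervals that overlap. With each library left out in turn, the share ran from 39.6% to 61% for quiescent-specific and from 71% to 95.5% for activated-specific sites. Over all such sites it ran from 39.8% to 68.1% and from 75.4% to 95.2%. With every list cut to the 47037 strongest peaks of the shortest one, the share of open sites was 51.2% for activated-specific and 18.2% for quiescent-specific sites, beside 56.4% and 18.6% of all such sites.

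Sites open in reactivated NSPCs alone numbered 121 of 554 with a peak in 2 or more of 6 libraries (21.8%), beside 21.4% of all sites. Lamc1 had 6, Col18a1, the source of endostatin, Lama5 and Col27a1 5 each, and Lama3, Col25a1, Itga5, the fibronectin receptor subunit, and Col13a1 4 each. The count was 13 with lists of equal length. Without reactivated replicate 1 or 2, when a single peak decides the call, it was 205 and 191. Shares over all sites were not computed under these settings, so the changes are not read as particular to the genes. Of the 174 sites at promoters, 40 (23%) were open in reactivated NSPCs alone, beside 15.2% of all promoter sites.

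Sites with a peak in all 6 libraries allowed a test of strength. Of 23116 such sites, 146 lay in the gene windows, and limma compared their log2 fold enrichment, centred on each library's median, with p-values adjusted over all 23116. Differences below are on this centred log2 scale. At an adjusted p under 0.05, 6 sites were higher in quiescent NSPCs (all sites, 5.29%) and 5 higher in activated NSPCs (5.76%). An unadjusted p under 0.05 was found at 35 of the 146 sites, beside 5983 of all 23116. The balance depends on the scaling, since without it 1 site was higher in quiescent and 11 in activated NSPCs, beside 437 and 2197 of all sites. With the mean of subpeaks the counts were 1 and 3, beside 512 and 650 of all sites. The calls went both ways within the laminins, the collagens and the integrin beta genes.

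Higher in activated NSPCs were sites in or near Lamb3, Itgb8, Col9a3 and Col16a1, which are 4 of the 5. The Lamb3 exon site at chr1:193338177-193338985, in the gene of an epithelial laminin beta chain, had 4.49 and 3.89 in the quiescent libraries, 10.9 and 10.3 in the activated ones and 11.5 and 13.6 in the reactivated ones (log2 difference of quiescent from activated -1.12, SE 0.18, limma adjusted p = 0.0023). It passed with each of the 6 libraries left out in turn, at a limma adjusted p of at most 0.0338, where the state with 1 library left is assumed to vary like the others. The Itgb8 intron site at chr12:119206700-119207451 had 4.6 and 4.2, 10.5 and 8.7, and 10.7 and 13.0 (-0.90, SE 0.17, limma adjusted p = 0.00625). At both sites the reactivated values lay above the quiescent ones, also after centring. The other 2 were a site near Col9a3 at the promoter of Ogfr (-0.84, limma adjusted p = 0.0227) and an intron site of Col16a1 (-0.69, limma adjusted p = 0.0279).

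Higher in quiescent NSPCs was an Itgb5 intron site at chr16:33941138-33941999, with 9.92 and 9.66 in the quiescent libraries, 6.85 and 5.52 in the activated ones and 9.84 and 8.72 in the reactivated ones (0.89, SE 0.17, limma adjusted p = 0.00658). Col5a2, a fibrillar collagen chain, was the 1 gene whose own H3K4me3-marked promoter differed, at chr1:45502808-45503389, with 10.4 and 7.87, 6.76 and 5.70, and 12.4 and 13.9 (0.76, SE 0.18, limma adjusted p = 0.0168). The quiescent and activated values did not overlap at either site. A Col9a2 exon site at chr4:121040934-121041745 had 5.72 and 5.48 in quiescent NSPCs, against 3.76 and 3.18 in activated NSPCs (0.92, SE 0.19, limma adjusted p = 0.0104), while the nearby Col9a2 promoter site was open in activated and closed in quiescent NSPCs. The others were introns of Col22a1 (0.94, limma adjusted p = 0.00912) and Lamb3 (0.69, limma adjusted p = 0.0207) and an internal start of Col9a1 (0.70, limma adjusted p = 0.0443). The Col9a1 call was lost with any 1 library left out (limma adjusted p = 0.0501 to 0.251). Fewer than 6 sites were called higher in quiescent NSPCs with any 1 quiescent or activated library left out. The count over all sites fell there too.

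**Figure D5:**
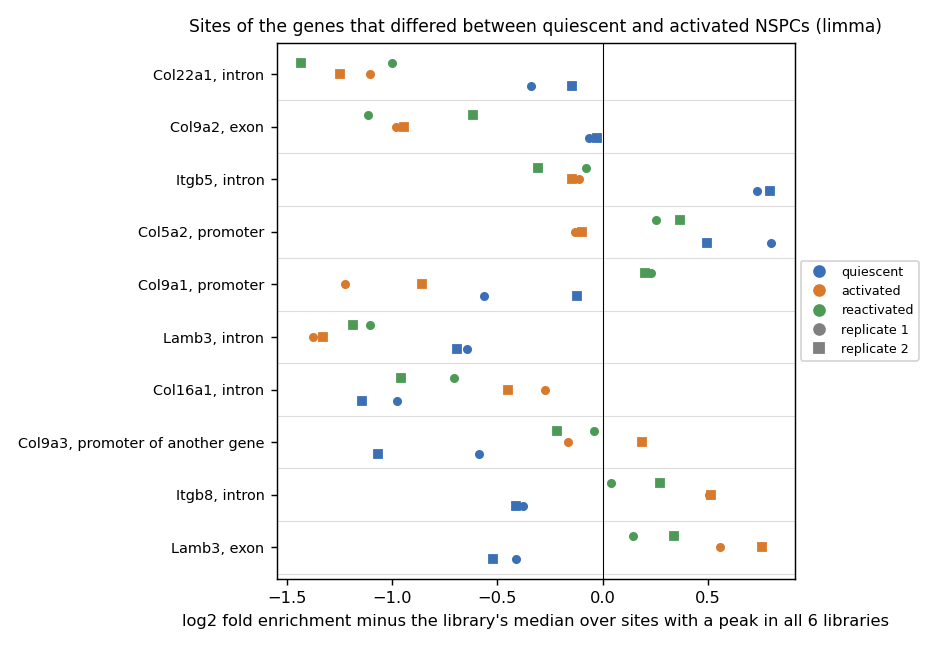
The 10 sites in the window of a single one of the genes that differed between quiescent and activated NSPCs, with log2 fold enrichment minus the library's median (horizontal axis), circles for replicate 1 and squares for replicate 2. At each site both quiescent points lie on 1 side of both activated points. Both reactivated points lie beyond either state at the Col9a1 start and between the states at sites such as the Lamb3 exon, Itgb8 and Col16a1.

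Against reactivated NSPCs the centring matters, since the median log2 enrichment of the tested sites was 3.38 and 3.43 in the reactivated libraries, 2.89 and 2.61 in activated and 2.58 and 2.48 in quiescent NSPCs. After centring, 9 sites were higher in reactivated than activated NSPCs (all sites, 6.62%) and 10 lower (9.95%). Against quiescent NSPCs 15 were higher (11.2%) and 24 lower (22.5%). Without scaling, 74 and 98 sites were higher and none lower, beside 11445 and 15233 higher and 86 and 101 lower of all 23116 sites. With quantile normalization 8 and 15 were higher and 5 and 14 lower, beside 1622 and 2694 higher and 1483 and 2819 lower of all sites. A lower value in reactivated NSPCs is thus one relative to the other sites.

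Among the sites that stood higher in reactivated NSPCs than in both other states was the shared Col4a1 and Col4a2 promoter, by 0.64 against activated (limma adjusted p = 0.0285) and by 0.65 against quiescent NSPCs (limma adjusted p = 0.0148). The Itga2 promoter, of a collagen receptor subunit, had 3.94 and 3.36 in the quiescent libraries, 4.77 and 4.14 in the activated ones and 12.9 and 11.8 in the reactivated ones (0.82, limma adjusted p = 0.0129, and 0.89, limma adjusted p = 0.00358). An Itgal intron site had 4.86 and 3.74, 5.17 and 3.62, and 15.9 and 15.5, with differences of 1.2 and 1.0 (limma adjusted p = 0.00551 and 0.00276). It passed with each library left out in turn, as did the internal Col9a1 start against activated NSPCs (1.26, limma adjusted p = 0.00618). A Lama3 intron site had 2.78 and 2.22, 3.58 and 3.30, and 8.95 and 11.2 (0.89 and 1.14, limma adjusted p = 0.0125 and 0.00176). The H3K4me3-marked Itga6 promoter at chr2:71786747-71787850 differed from quiescent NSPCs alone (0.52, limma adjusted p = 0.0389). Introns of Itga9, Itgb8 and Lama2 were higher than in activated NSPCs by 0.68, 0.74 and 0.59, and a Lamb1 exon and a Col15a1 intron higher than in quiescent NSPCs by 0.76 and 0.82. With either reactivated library left out, fewer sites were called higher against both states. Without activated replicate 2, fewer were called higher against activated NSPCs. The same counts over all sites fell too, and a state then has 1 library.

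Relatively lower in reactivated NSPCs was the strongest site of all these genes, in an intron of Lama1 at chr17:67741291-67741668, with 25.0 and 22.8 in the quiescent libraries, 24.7 and 22.2 in the activated ones and 21.3 and 20.1 in the reactivated ones (-0.83 against activated and -1.08 against quiescent NSPCs, limma adjusted p = 0.0122 and 0.00159). Its mean percentile was 99.8, and the reactivated values were the lowest also before centring. A Lamb3 intron site with 11.7 and 12.6, 13.3 and 10.1, and 7.2 and 10.5 was lower by the largest amount (-1.07 and -1.36, limma adjusted p = 0.00952 and 0.00135). The Col11a1 promoter had 15.4 and 15.8 in quiescent and 17.5 and 18.3 in reactivated NSPCs, and a centred difference of -0.67 (limma adjusted p = 0.0139), so that its sign comes from the centring. Introns of Itgad, Itgb5 and Col22a1 were lower than in quiescent NSPCs, with differences of -1.11, -0.95 and -0.97. Sites at the promoters of other genes in the windows (Fam171a2 near Itga2b, Ring1 and Rxrb near Col11a2, Adrm1 near Lama5, Mios near Col28a1, Pttg1ip near Itgb2) were also lower in 1 or both contrasts. Before centring, 15 of the 24 sites called lower than in quiescent NSPCs and 1 of the 10 called lower than in activated NSPCs had the opposite sign, those at Col11a1, Adrm1, Mios and Pttg1ip among them. A further Itga9 intron site, at chr9:118674880-118675088, had 12.7 and 9.71, 12.1 and 12.3, and 11.8 and 12.0. After centring it was lower (-0.69 and -0.77, limma adjusted p = 0.029 and 0.0092), against the direction of the Itga9 site above. Its uncentred reactivated values lay between the quiescent ones, and its sign against quiescent NSPCs comes from the centring. Fewer sites were called lower than in activated NSPCs without activated replicate 2 or either reactivated library. Fewer were called lower than in quiescent NSPCs without quiescent replicate 2 or either reactivated library. Over all sites these counts fell as well.

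Genes that act with these families are set beside the 54.5% of all genes with a promoter peak in all 6 libraries. Of 8 basement membrane and matrix partners, 7 had a promoter peak in all 6 libraries, among them Nid2, Hspg2 (perlecan), Agrn, Fn1 and Tnc. The exception was Nid1, a linker of laminin and collagen IV, with 2.75 in 1 quiescent and 2.42 in 1 activated library and 5.30 and 4.41 in the reactivated ones. Of 15 genes for collagen processing 9 had peaks throughout, among them the prolyl hydroxylase genes P4ha1 and P4ha2, the lysyl hydroxylase genes Plod1, Plod2 and Plod3 and the collagen chaperone gene Serpinh1. The crosslinking enzyme genes Lox and Loxl4, and Pcolce, were open in reactivated NSPCs alone. Of 8 matrix proteases and inhibitors 5 had peaks throughout, and Mmp2, a gelatinase, was open in reactivated NSPCs alone with 10.3 and 3.55. Of 15 integrin adaptor and signalling genes 10 had peaks throughout, among them Tln1, Ilk, Ptk2 (focal adhesion kinase), Vcl and Fermt2. Fermt1 and Lims2 were open in reactivated NSPCs alone, and Tln2 had no promoter peak in any library. No gene of the 4 lists was open in quiescent and closed in activated NSPCs or the reverse.

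Markers of other cell types are given by state, beside the open promoters of all genes above, which were also most numerous in reactivated NSPCs. Of 5 fibroblast and mural markers, 1 was open in quiescent, 2 in activated and 4 in reactivated NSPCs: Foxc1 in all, Fbln1 with 8.10 and 5.33 in activated NSPCs and no peak in quiescence, and Dcn and Pdgfrb after reactivation alone, while Lum had no peak. Among oligodendrocyte markers Opalin had no peak in quiescent NSPCs, 5.44 and 4.28 in activated and 14.3 and 15.8 in reactivated NSPCs, and Mog, Mag and Mobp had none in any library. Among microglial markers P2ry12 had 2.06 in 1 quiescent library, 6.23 and 4.42 in activated and 9.61 and 9.58 in reactivated NSPCs. Tmem119 was open in reactivated NSPCs with a peak in 1 activated library (2.71), Cx3cr1 had a peak in 1 quiescent library, and Aif1 and Trem2 had none. The endothelial marker Kdr was open in activated and reactivated NSPCs, with a peak in 1 quiescent library (2.60). It carried H3K4me3 in quiescent (28.6) and activated NSPCs (23.6). Pecam1 had a peak in 1 activated and 1 reactivated library, and Cldn5, Cdh5 and Tek had none. Of the neuronal markers Snap25 and Syt1 were open in every state, Rbfox3 in reactivated NSPCs with a peak in 1 activated library, and Stmn2 had none. The part of such cells in the promoters open in activated or reactivated NSPCs was not tested.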

How the data were processed

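ATAC-seq and H3K4me3 ChIP-seq peak lists (mm10) were used as deposited. Per the submitters' processing notes and the methods, the authors trimmed reads with Trim Galore 0.4.0, aligned them with Bowtie2 2.2.5, used Picard 1.88 and SAMtools 1.3.1, and called peaks with MACS in each library at a false discovery rate of 0.05, with H3K4me3 broad peaks called against input (broad cutoff 0.01, extension 150 bp). Whether ATAC-seq reads were shifted for the transposase is not given in the sources used here. The deposited values are fold enrichment over local background (a ratio) and the −log10 of the p-value and q-value of each peak, without read counts. The 2 input samples were not analysed here.

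Peaks of the 6 ATAC-seq libraries (autosomes and sex chromosomes) were joined where they overlapped or touched, with the highest fold enrichment of a library kept per site. Gene windows, promoters and places came from the GENCODE annotation of mm10 (GRCm38.p6), and sequences from RefSeq's copy of that build. Open, closed and state-specific sites were called by presence of peaks. Shares have exact binomial intervals. Sites with a peak in all 6 libraries were tested with limma 3.58.1 in R 4.3.3 (state as factor, Benjamini-Hochberg over all sites), after the log2 fold enrichment was centred on each library's median, and the script was tested on simulated data. Named were genes with state-specific promoters, the largest limma differences, the genes with most state-specific sites and the strongest and weakest promoters. The genes and lists were chosen with earlier results of these data known. P-values measure only the spread between libraries of the same state, 2 for each, which the methods call biologically independent. In limma this spread was pooled over the states and moderated toward that of all tested sites (residual degrees of freedom 3, prior 9.13). Replicate numbers did not pair the libraries (correlations of deviations -0.00133, 0.0423 and -0.0173). Python 3.11.15, pandas 2.3.3 and scipy 1.17.1 were used. Of the 83 genes, 60 were found in the RefSeq promoter table. The results of 1 laminin gene are not reported here.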

Additional observations from a re-analysis of the deposited data

How the results depend on the processing

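Of the alternatives, a shared overlap of 50% could not differ from the main setting, because each peak lies wholly within its joined site, and was not run. With peaks of −log10 q of at least 10, the genes had 25 quiescent-specific and 22 activated-specific sites, with 56% of the former and 100% of the latter open in reactivated NSPCs, 17 promoters with a peak in all 6 libraries and 1 promoter open in quiescent and closed in activated NSPCs. For the shares open in reactivated NSPCs and the promoter counts, values over all sites or genes at this cutoff are not given. They are thus not read as particular to these genes. The activated-specific count was 28 within gene bodies alone. With lists of equal length, 13 sites were open in reactivated NSPCs alone, 18.2% of the quiescent-specific and 51.2% of the activated-specific sites were open in reactivated NSPCs, and 1 promoter was open in quiescent and closed in activated NSPCs, as with the 5-prime end of each gene alone. The 13 sites and the promoter counts have no value over all sites or genes beside them.

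For the limma counts, without scaling 1 site was higher in quiescent and 11 in activated NSPCs, 74 were higher and 0 lower in reactivated than activated NSPCs, and 98 higher and 0 lower than in quiescent NSPCs. Over all 23116 sites these counts were 437 and 2197, 11445 and 86, and 15233 and 101. The mean of subpeaks in place of the highest gave 1 and 3, 3 and 3, and 12 lower than in quiescent NSPCs. Over all sites it gave 512 and 650, 983 and 873, and 2435. At −log10 q of at least 10 only 94 sites of the genes, and 14379 of all, had a peak in all 6 libraries. The counts were then 2 and 3 between quiescent and activated NSPCs and 13 lower in reactivated than quiescent NSPCs. Over all sites they were 403, 478 and 2790. Quantile normalization gave 5 lower than in activated and 14 lower than in quiescent NSPCs. Among higher and lower calls together it moved the share of higher calls from 47.4% to 61.5% against activated and from 38.5% to 51.7% against quiescent NSPCs for these genes. Over all sites the same shares moved from 40% to 52.2% and from 33.2% to 48.9%. Without scaling, 2 of the 50 named differences (the largest of each contrast and direction) changed sign: the site at the Adrm1 promoter near Lama5 (0.09, reactivated minus activated) and the Col9a2 exon site (0.06, reactivated minus quiescent). With the replicate block the counts were 6 and 5, 7 and 10, and 16 and 23, no count moved by more than 1.5 times, and 3 of 50 named differences no longer passed. That number was 28 with the mean of subpeaks, 25 without scaling (the 2 that changed sign among them), 7 with quantile normalization, and 12 to 22 with a library left out, where the lone library of a state is assumed to vary like the others. The numbers do not pair the libraries.

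Leaving out each replicate in turn gave 55 to 119 quiescent-specific sites, 44 to 93 activated-specific sites and 131 to 205 sites open in reactivated NSPCs alone. For the last of these no share over all sites was computed. The quiescent-specific share was 17% to 46.5%, beside 14.7% to 39.6% of all sites. The activated-specific share was 13.6% to 33.8%, beside 9.97% to 26.7%. The shares open in reactivated NSPCs ran from 39.6% to 61% and from 71% to 95.5%. Promoters with a peak in all 6 libraries numbered 29 to 33, those open in quiescent and closed in activated NSPCs 0 to 2, and the reverse 4 to 8. The difference in the share of peaks ran from -0.0264 to 0.0126 percentage points, with 0.0067 without quiescent replicate 1. The limma counts ran from 1 to 5 and 4 to 6 (quiescent and activated), 2 to 10 and 1 to 10 (reactivated and activated), and 6 to 18 and 10 to 28 (reactivated and quiescent). The direction of a named limma site did not turn in any of these. Over all sites most of the limma counts also fell with a library left out. Peak lists limit what is seen: a site without a peak may lie just under the authors' threshold, and with 2 libraries a state the tests rest on few degrees of freedom.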
